A study of Mus musculus with 4 samples.

Results

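The genes described here encode the inhibitor of DNA binding (ID) proteins Id1, Id2, Id3 and Id4, the E proteins Tcf3, Tcf4 and Tcf12, the TWIST factors Twist1 and Twist2, and the repressor Bhlhe40. They were found by gene symbol among the probes of the array, and all 10 had a probe. Tcf12 had 2 probes and every other gene 1, which gave 11 of the 26423 probes in the table. Expression was measured in 3T3-L1 cells, mouse preadipocytes that become fat cells once induced. Both groups received the induction mixture for 48 hours, which held insulin at 1 µg/ml, dexamethasone at 1 µM and isobutylmethylxanthine at 0.5 mM. The 2 control samples received no other agent, and the 2 berberine samples also received the plant alkaloid berberine at 13.47 µM. The labels do not say that the samples of a group came from separate cultures, so the p-values reflect only how far these arrays differ, and that spread may be technical.

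Helix-loop-helix proteins act as pairs. E proteins and their tissue-specific partners, among them the TWIST factors, carry a basic region beside the helix-loop-helix and bind the E-box, the DNA sequence CANNTG, as dimers. ID proteins have the helix-loop-helix but no basic region, so an E protein paired with an ID protein does not bind DNA. ID genes are well-known targets of bone morphogenetic protein (BMP) signalling through SMAD factors, and Bhlhe40 encodes a bHLH repressor that binds E-boxes and is linked to the circadian clock and to cell stress.

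Levels below are log2 intensities after quantile normalization between arrays, a change is berberine minus control on that scale, and the error is the standard error (SE) or 95% interval from limma. Adjusted p-values are limma's with Benjamini-Hochberg adjustment over all 26408 probes fitted, with a threshold of 0.05. A fold is 2 to the power of the size of the log2 change, the ratio of the geometric means of the groups, and a probe under 6.57, the 25th percentile of all normalized values, is called dim. Of all probes 44.8% passed the threshold, 27.1% higher and 17.7% lower with berberine, and the split moved with the scaling. It was 7164 higher and 4674 lower after quantile normalization, 2396 and 4291 in the deposited values, 10694 and 3311 after centring each array on its median, and 5570 and 3692 after scaling on the 75th percentile. The median change of all probes was 0.17, -0.048, 0.52 and 0.26 in these 4 cases. Without berberine replicate 1 or 2, only 3704 or 3346 probes passed in place of 11838.

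Promoter sequences of 7 of the 10 genes, all but Id1, Tcf4 and Bhlhe40, were read from RefSeq's GRCm38.p6 table. Those of Id2, Id3 and Id4 are shown because these genes were lower together, as the 250 bases before the start site, read 5′ to 3′ on the gene's strand, with capitals for matches to the E-box CANNTG, to GGCGCC, a GC-rich element of the kind bound by BMP-activated SMADs, or to TGACG, the core of the cAMP response element, which reads CGTCA on the other strand.
Id2, chr12:25096093-25096342, minus strand: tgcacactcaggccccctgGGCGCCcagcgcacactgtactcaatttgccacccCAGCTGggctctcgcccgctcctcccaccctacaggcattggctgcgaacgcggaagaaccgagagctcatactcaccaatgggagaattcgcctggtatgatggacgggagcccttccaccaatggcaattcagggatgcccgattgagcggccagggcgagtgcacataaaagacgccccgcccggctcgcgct
Id3, chr4:136143572-136143821, plus strand: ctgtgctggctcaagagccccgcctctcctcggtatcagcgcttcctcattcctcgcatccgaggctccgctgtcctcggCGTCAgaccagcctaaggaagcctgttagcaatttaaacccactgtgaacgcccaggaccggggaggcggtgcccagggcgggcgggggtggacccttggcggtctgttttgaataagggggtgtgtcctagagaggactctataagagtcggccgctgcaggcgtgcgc
Id4, chr13:48260866-48261115, plus strand: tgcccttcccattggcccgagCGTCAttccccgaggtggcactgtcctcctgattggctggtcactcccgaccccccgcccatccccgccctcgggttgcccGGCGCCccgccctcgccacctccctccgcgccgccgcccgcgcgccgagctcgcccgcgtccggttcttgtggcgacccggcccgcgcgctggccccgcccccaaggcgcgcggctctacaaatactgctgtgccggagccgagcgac
The Id2 stretch held 1 E-box and 1 GGCGCC, that of Id3 held 1 TGACG match, and that of Id4 held 1 GGCGCC and 1 TGACG match, and these matches did not overlap. Searched on both strands over 250 bases before to 50 after the start site, CANNTG was present in 72.3% of 32851 RefSeq promoters, GGCGCC in 11.9% and TGACG in 20.8%. The E-box form CACGTG, which is one of the CANNTG sequences, was in 7.15% of all promoters and in 0 of the 9 promoters read for the 7 genes. No motif was present in all of Id2, Id3 and Id4.

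Berberine samples had lower signal for all 4 ID genes and for Tcf3, higher signal for Bhlhe40, and no change past the threshold for Tcf4, Twist1 and Twist2, while the 2 probes of Tcf12 differed. Of the 11 probes, 6 (54.5%) were lower and 1 (9.09%) was higher, against 17.7% and 27.1% of all probes. Both berberine arrays lay below both control arrays at 6 of the 11 probes and above them at 4, against 28.2% and 46.6% of all probes. The median change of the 11 probes was -1.16, and that of all probes was 0.17. The smallest two-sided p of an exact permutation test with 2 arrays a group is 0.33, and each adjusted p therefore rests on the spread that limma pools over probes.

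**Figure D1:**
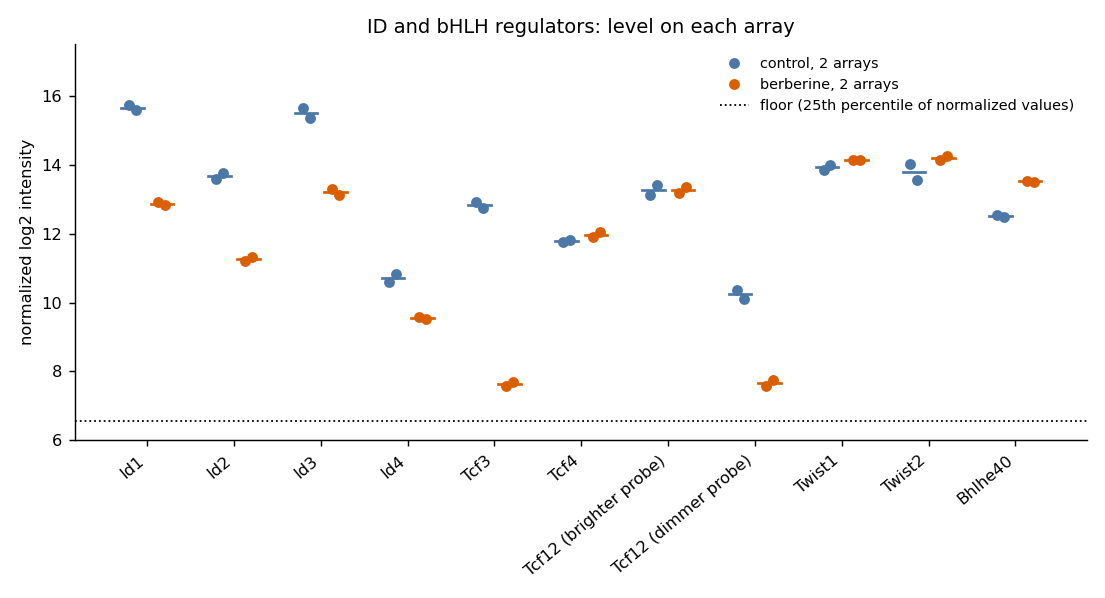
Normalized log2 intensity (vertical axis) of each probe on the 2 control arrays (blue points) and the 2 berberine arrays (orange points), with the group mean as a bar and the floor of 6.57 as a dotted line. The blue and orange points separate by over 2 log2 units at Id1, Id2, Id3, Tcf3 and the dimmer Tcf12 probe. Different probes bind their targets differently, so heights are to be read within a probe.

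Id1 was the ID gene with the lowest change. The control arrays held deposited intensities of 56753 and 40471 for Id1, the berberine arrays 7646 and 7918. On the normalized log2 scale these were 15.72 and 15.58 in control and 12.92 and 12.82 with berberine, so the groups lay far apart and the arrays of a group close together. Id1 fell 6.88-fold, with a change of -2.78 (SE 0.13, interval -3.11 to -2.45, n = 2 each, limma adjusted p = 0.000215). Among all probes fitted, 3.44% had a change as low or lower.

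Id2 and Id3 fell by similar amounts. Id2, an ID protein also known to bind the retinoblastoma protein, was at 13.58 and 13.74 in control and 11.20 and 11.33 with berberine. Its 5.26-fold fall was a change of -2.39 (SE 0.13, interval -2.74 to -2.04, limma adjusted p = 0.000354). Id3 was at 15.64 and 15.35 in control and at 13.31 and 13.11 with berberine, with no overlap between the groups. The change of Id3 was -2.29 (SE 0.16, interval -2.71 to -1.87, limma adjusted p = 0.00067), a 4.88-fold fall, and its interval overlapped those of Id1 and Id2. Changes as low or lower were found at 4.41% of all probes for Id2 and 4.7% for Id3.

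Id4 had the smallest fall of the 4 genes. It was at 10.59 and 10.83 in control and 9.59 and 9.51 with berberine, again without overlap. The 2.23-fold fall was a change of -1.16 (SE 0.14, interval -1.53 to -0.79, limma adjusted p = 0.00325). After quantile normalization its interval did not overlap those of the other ID genes. Id4 and Id3 lay closer in the deposited values (-1.68 and -2.13), after centring (-1.12 and -1.56) and on the 75th percentile (-1.37 and -1.82). The call of Id4 was lost without berberine replicate 1 (adjusted p = 0.0568) or 2 (adjusted p = 0.0676). The falls of Id1, Id2 and Id3 passed under each of the 11 alternatives counted for a single probe, which leave out the 2-fold setting. Their changes were -2.78 to -2.06, -2.46 to -1.89 and -2.29 to -1.56 over the 4 scalings. Each ID gene had 1 probe, so none of these falls could be compared with another probe of the same gene. In bulk RNA, fewer cells that express a gene and less of its RNA per cell cannot be told apart.

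Among the E proteins, which ID proteins hold off DNA, the largest difference was at Tcf3, while Tcf4 did not pass. Tcf3 encodes the E2A proteins, products of 1 gene by alternative splicing. Its deposited intensities were 8391 and 5782 in control and 148 and 195 with berberine, and the normalized levels were 12.90 and 12.75 against 7.57 and 7.71. The berberine arrays stayed above the floor. Tcf3 fell 36.4-fold, a change of -5.19 (SE 0.13, interval -5.53 to -4.84, n = 2 each, limma adjusted p = 7.13e-05), and 0.693% of all probes had a change as low or lower. This fall rests on 1 probe, matched to Tcf3 by its symbol alone. Falls of at least 8-fold were seen at 2.92% of all probes and at 7.38% of the 8966 probes above a level of 10 in control, the class that Tcf3 belongs to.

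Tcf4 was at 11.77 and 11.83 in control and at 11.89 and 12.04 with berberine. Both berberine arrays were above both controls, but the change of 0.17 (SE 0.13, interval -0.16 to 0.50) did not pass (limma adjusted p = 0.336). The interval leaves room for a small fall or for a rise of up to 0.50 on log2. Centring on the median alone carried Tcf4 past the threshold (change 0.63, adjusted p = 0.0196), beside a median change of 0.52 at all probes.

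The Tcf12 probes gave different answers. At the brighter probe, levels were 13.13 and 13.42 in control and 13.17 and 13.36 with berberine, and the groups overlapped. The change there was -0.0095 (interval -0.43 to 0.41, limma adjusted p = 0.967), with a sign that turned under 3 other scalings (0.11 in the deposited values, 0.41 on the 75th percentile and 0.67 after centring). After centring the brighter probe passed as higher (limma adjusted p = 0.0212), beside a median change of 0.52 at all probes. The dimmer probe read 10.37 and 10.11 in control and 7.56 and 7.74 with berberine. There Tcf12 fell 6.0-fold, a change of -2.59 (SE 0.16, interval -2.99 to -2.18, limma adjusted p = 0.000421), and the intervals of the 2 probes did not overlap. Averaging both probes gave -1.30 (limma adjusted p = 0.0012), a value that neither probe showed. RefSeq's table lists Tcf12 with 3 promoters, and which transcripts each probe reads was not analysed here. Of the 3 E protein genes, only Tcf12 had a second probe, and the array gave no single direction for it.

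**Figure D2:**
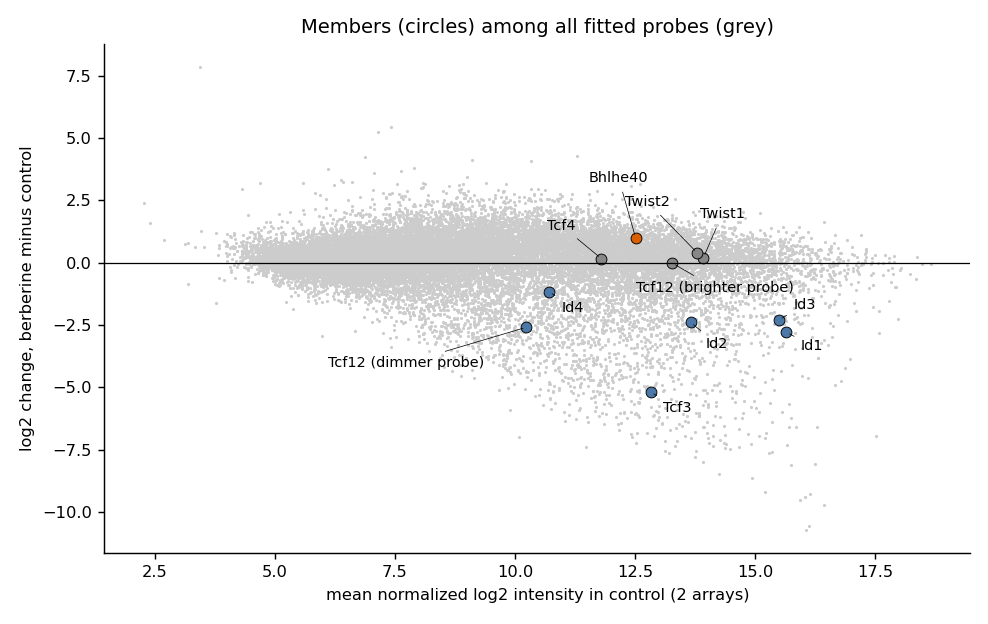
Log2 change, berberine minus control (vertical axis), against the mean normalized log2 intensity in control (horizontal axis) for all 26408 probes (grey) and for the 11 probes described here (circles, blue for lower, orange for higher, grey for not past the threshold). Tcf3, at -5.19, is the lowest of the circles, and Bhlhe40, at 1.00, the highest.

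Symbols that look alike were kept apart by the deposited symbol alone, and which transcripts the probes read was not analysed. Tcf7l1 and Tcf7l2, factors of the Wnt pathway that are not bHLH proteins, have been called Tcf3 and Tcf4 in older usage, and each had its own probe. Tcf7l1 was 1.47 higher (limma adjusted p = 0.000916), opposite to the fall at Tcf3, and Tcf7l2 was at -0.60 (limma adjusted p = 0.0455). A probe named Stra13, an older name shared by Bhlhe40, Cenpx and Laptm5, could not be tied to 1 gene and was not counted, and its change was 0.17 (limma adjusted p = 0.342).

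The TWIST factors, which mark mesenchymal cells and pair with E proteins, did not pass the threshold. Twist1 was at 13.84 and 14.00 in control and at 14.13 and 14.12 with berberine. Twist2 was at 14.03 and 13.56 in control and at 14.13 and 14.25 with berberine. In both genes the berberine arrays lay above the controls, by less than the spread of the control arrays at Twist2. The changes were 0.21 (interval -0.13 to 0.54, limma adjusted p = 0.248) for Twist1 and 0.40 (interval -0.11 to 0.90, limma adjusted p = 0.161) for Twist2. Both passed when arrays were scaled on the 75th percentile (0.69, adjusted p = 0.037, and 0.87, adjusted p = 0.0252) or centred on the median (0.95, adjusted p = 0.00613, and 1.13, adjusted p = 0.0141), and Twist2 also without control replicate 1 (0.64, adjusted p = 0.0402). Falls of the size seen at Id1, Id2 and Id3 lay outside both intervals.

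Bhlhe40 was the only one of the 10 genes called higher. Its levels were 12.53 and 12.49 in control and 13.52 and 13.50 with berberine. The groups were separated by about 1 log2 unit, with 0.0352 between the control arrays and 0.0145 between the berberine arrays. Bhlhe40 rose 2.0-fold, a change of 1.00 (SE 0.12, interval 0.69 to 1.30, n = 2 each, limma adjusted p = 0.00286), and 11.5% of all probes had a higher change. The change was 1.00 to 1.67 over the 4 scalings. Before rounding it was 0.9987 after quantile normalization, so Bhlhe40 does not count as called where at least a 2-fold change is required. The call was lost without berberine replicate 1 (0.98, adjusted p = 0.0546) or 2 (1.00, adjusted p = 0.0583), where the lone array is assumed to vary like the others.

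**Figure D3:**
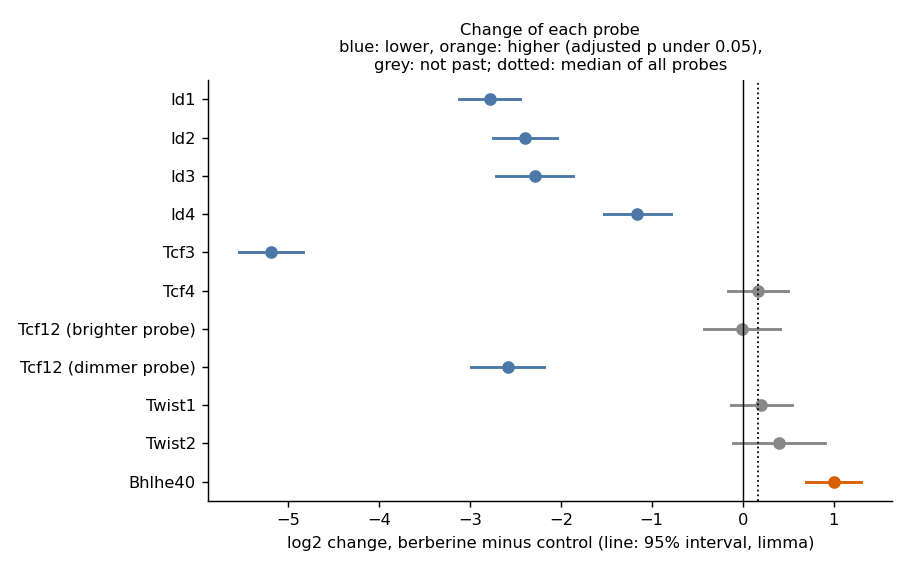
Log2 change, berberine minus control (horizontal axis), of each probe with its 95% interval from limma, in blue where lower, orange where higher and grey where the threshold was not passed. The dotted line is the median change of all probes, 0.17, and the 4 ID intervals, Tcf3 and the dimmer Tcf12 probe lie to the left of 0.

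**Figure D4:**
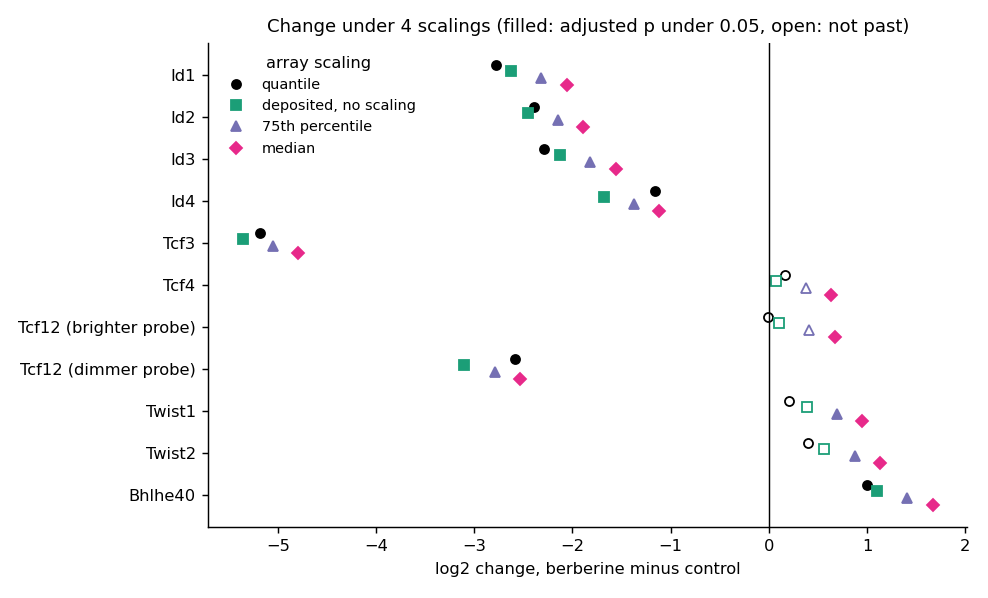
Log2 change of each probe (horizontal axis) under quantile normalization, in the deposited values, after scaling on the 75th percentile and after centring on the median, with filled symbols where the adjusted p is under 0.05. The 6 lower probes and Bhlhe40 are filled in all 4, while Twist1 and Twist2 are filled in 2 and Tcf4 and the brighter Tcf12 probe in 1.

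Genes around the ID and bHLH regulators were taken as lists, each gene by its brightest probe. Of 17734 genes measured this way, 30.0% were higher and 18.2% lower, with a median change of 0.20. The list members are described by counts and values, and nothing is claimed for a list as a whole.

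BMP ligands, receptors and SMADs, the pathway upstream of ID genes, held calls in both directions. Of all genes, 30.0% were higher and 18.2% lower. Of 22 measured genes 8 rose, 2 fell and 12 did not pass, with a median change of 0.34 (5 rose and 3 fell in the deposited values, and 3 genes in all passed without berberine replicate 1 or 2). Bmp2, a ligand, was at 12.34 and 12.69 in control and 9.99 and 9.95 with berberine, a 5.85-fold fall (change -2.55, SE 0.16, limma adjusted p = 0.000502). The type I receptor gene Bmpr1a fell 2.11-fold (limma adjusted p = 0.00241), a call that needed both berberine arrays (adjusted p = 0.0541 without replicate 1 and 0.0573 without replicate 2). Bmpr1b, the gene of another type I receptor, went the opposite way and rose 2.16-fold (limma adjusted p = 0.0066), which did not pass without scaling (adjusted p = 0.16) or when a berberine array was left out (highest adjusted p = 0.0901). Bmp4, another ligand, was at 12.05 and 12.17 in control and 12.25 and 12.11 with berberine and did not pass (adjusted p = 0.703) except after centring (0.60, adjusted p = 0.0285).

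Both inhibitors and signal carriers of the pathway were among the genes that rose. Smad7, an inhibitory SMAD, was at 9.53 and 9.64 in control and 12.20 and 12.14 with berberine, a 6.0-fold rise (change 2.59, SE 0.12, limma adjusted p = 0.000233). Smurf1, a ubiquitin ligase that targets SMADs, rose 3.40-fold (limma adjusted p = 0.000892). Smad7, Smurf1 and Bmp2 passed under all 11 alternatives. Bmpr1b, Bmp4 and the genes named next were chosen after their values were seen. Grem1 and Chrd, which encode secreted BMP antagonists, were 1.51 and 1.38 higher, and the signal carrier Smad1 was 1.42 higher (limma adjusted p = 0.0039, 0.00485 and 0.00454). These calls were lost without either berberine array (highest adjusted p = 0.0728, 0.0799 and 0.0768). The signal carriers Smad5 and Smad9 were 0.60 and 0.42 higher (limma adjusted p = 0.0273 and 0.0453). Smad5 did not pass under 4 alternatives, the 2 without a berberine array among them, and its other probe was at -0.46 (adjusted p = 0.0831). Smad9 did not pass under 7 alternatives, and under another, the deposited values, it turned to -0.20. The other inhibitory SMAD, Smad6, was at -0.73 and missed the threshold (adjusted p = 0.0503), but passed as lower under 7 of the 11 alternatives. The decoy receptor Bambi was at 0.027 (adjusted p = 0.898), with a sign that turned under 4 alternatives, to -0.38 in the deposited values.

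Among ID partners other than E proteins and genes of ID protein turnover, 4 of 10 fell and 2 rose, with a median change of -0.40 (3 fell and 0 rose without berberine replicate 1 or 2). Among all genes 18.2% were lower and 30.0% higher. Usp1, a deubiquitinase that stabilizes ID proteins, was at 12.06 and 12.15 in control and 8.14 and 8.39 with berberine, a 14.3-fold fall (change -3.84, SE 0.14, limma adjusted p = 0.000137). Wdr48, which encodes the activating partner of USP1, was higher at both of its probes (1.20, limma adjusted p = 0.00962, and 1.04, limma adjusted p = 0.00528). The brighter Wdr48 probe did not pass without either berberine array (highest adjusted p = 0.112). Fzr1, an activator of the anaphase-promoting complex, which marks ID proteins for destruction, was at 12.72 and 12.99 in control and 9.02 and 9.05 with berberine, a 14.1-fold fall (change -3.82, SE 0.15, limma adjusted p = 0.000138). The ETS-family factor Elk3, whose relatives are bound by ID proteins, was dim with berberine, a fall of at least 4.08-fold (limma adjusted p = 0.000367). Rb1, the retinoblastoma protein gene, was 0.66 higher (limma adjusted p = 0.0204), which did not pass without scaling (0.30, adjusted p = 0.508), on the 75th percentile (adjusted p = 0.0554) or when a berberine array was left out (highest adjusted p = 0.152). Srebf1, a bHLH regulator of lipid synthesis, was at -0.47 and did not pass (adjusted p = 0.0587). It passed as lower under 3 of the 11 alternatives, among them the deposited values (-0.85, limma adjusted p = 0.0368).

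Of the CDK inhibitors described as E protein targets, 1 of 4 passed the threshold, against 48.2% of all genes. Cdkn2a was at 13.29 and 12.97 in control and 7.24 and 7.34 with berberine at its brighter probe, a 57.2-fold fall (change -5.84, SE 0.16, limma adjusted p = 7.56e-05). Its other probe fell too (change -3.98, limma adjusted p = 0.000458), so here 2 probes of a gene had the same direction. Cdkn1a was at 15.45 and 15.09 in control and at 14.45 and 15.07 with berberine. Its change of -0.51 did not pass (adjusted p = 0.166) and turned to 0.28 after centring.

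Tissue-specific bHLH factors of class II are the usual partners of E proteins. Of 25 measured genes 5 rose, 3 fell and 17 did not pass, against 30.0% higher and 18.2% lower of all genes. In both groups 9 of the 25 were dim. The counts moved with the scaling, to 0 higher and 3 lower in the deposited values, 12 and 1 after centring, and 1 and 2 on the 75th percentile. Without berberine replicate 1 or 2, limma called 0 of these genes, with 5 at an unadjusted p under 0.05 in both cases. Nhlh1, a neural factor, was 0.83 higher (limma adjusted p = 0.00644), Tcf21, a mesenchymal factor, was 0.74 lower (limma adjusted p = 0.0151) and Atoh8 was 0.73 lower (limma adjusted p = 0.0211). With berberine Tcf21 was at 6.74 and 6.46, close to the floor. Nhlh1 did not pass under 3 of the 11 alternatives, among them the deposited values (0.31, limma adjusted p = 0.415). Tcf21 and Atoh8 did not pass under 4 each, among them centring for Atoh8 (-0.58, limma adjusted p = 0.0716). Neurod1 was dim in both groups, and no fold is given.

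Hairy-related repressors are the family nearest to Bhlhe40. Of all genes 30.0% were higher and 18.2% lower, and of 8 measured genes of this family 3 and 1 (1 and 1 in the deposited values). Without berberine replicate 1 or 2, limma called 0 of them, with 2 and 3 at an unadjusted p under 0.05. Bhlhe41, the closest relative of Bhlhe40, was at 7.50 and 7.26 in control and 6.74 and 6.22 with berberine, the direction opposite to Bhlhe40. It fell at least 1.75-fold (limma adjusted p = 0.0253), close to the floor. The call of Bhlhe41 was lost when any 1 of the 4 arrays was left out, with changes of -1.19 to -0.69. Hes1, a Notch target, was 0.81 higher at its brighter probe (limma adjusted p = 0.0352) and 0.98 lower at the other (limma adjusted p = 0.0039). Hes5 was 0.45 higher (limma adjusted p = 0.0396), with a sign that turned in the deposited values (-0.10), and Hes2 was dim in both groups.

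Circadian genes that act through or carry E-boxes gave 1 higher and 3 lower of 12 (5 and 1 after centring, and 2 or 1 genes in all without berberine replicate 1 or 2). The shares of all genes were 30.0% higher and 18.2% lower. Arntl, the bHLH partner of Clock, rose 2.31-fold (change 1.21, limma adjusted p = 0.00169). Tef, an output factor of the clock, was at 11.20 and 11.57 in control and 7.19 and 7.05 with berberine, a 19.2-fold fall (limma adjusted p = 0.000155). Dbp, a relative of Tef, fell 2.02-fold (limma adjusted p = 0.0062), which did not hold after centring (adjusted p = 0.0628) or when a berberine array was left out (highest adjusted p = 0.0909). Per3 was 0.48 lower (limma adjusted p = 0.0413), turned to 0.23 after centring, and did not pass under 6 other alternatives, while its other probe was 0.75 lower (limma adjusted p = 0.0173). Arntl missed the threshold when berberine replicate 2 was left out (adjusted p = 0.0502).

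Among mesenchymal transcription factors beside the TWIST genes, 2 of 7 rose and 2 fell, against 30.0% and 18.2% of all genes. The list counts were 3 and 0 after centring, and on the 75th percentile. Foxc2, a forkhead factor, was at 10.49 and 10.52 in control and 13.07 and 13.06 with berberine, a 5.88-fold rise (change 2.56, SE 0.12, limma adjusted p = 0.000215). Snai1 was 0.70 higher (limma adjusted p = 0.0313), while its relative Snai2 was 0.62 lower (limma adjusted p = 0.0123) and turned to 0.091 after centring. Prrx2 was 0.73 lower (limma adjusted p = 0.00731) and at -0.0053 after centring. The calls of Snai1, Snai2 and Prrx2 were lost without either berberine array (highest adjusted p = 0.201, 0.108 and 0.0831) and in the deposited values, and that of Snai1 also without control replicate 1 (adjusted p = 0.0861). Foxc2 was the gene of the list that passed under all 11 alternatives.

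**Figure D5:**
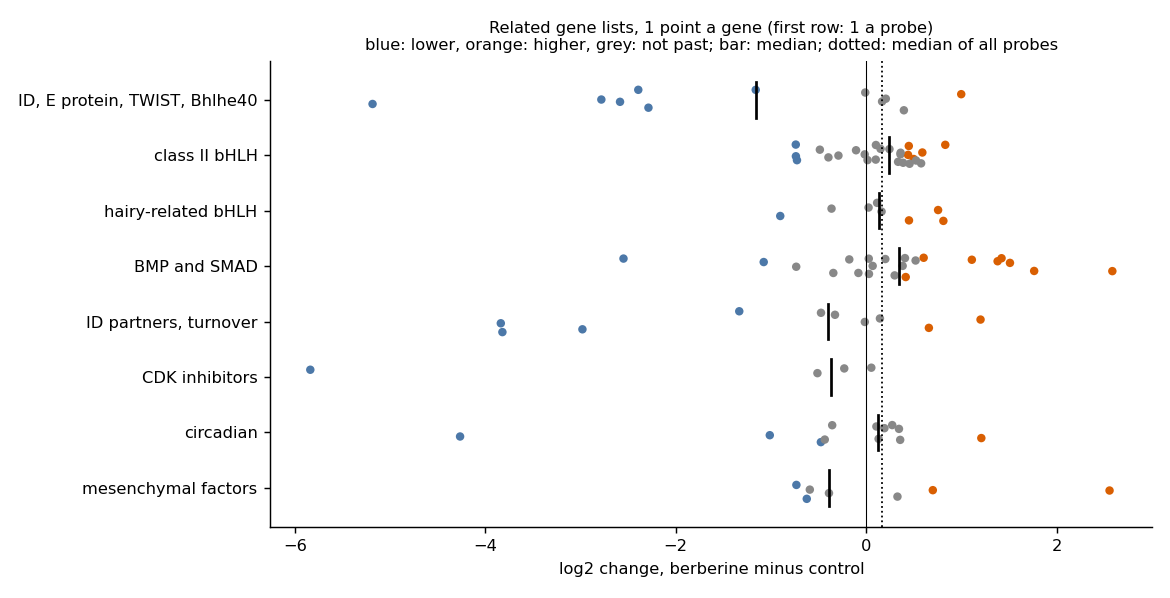
Log2 change, berberine minus control (horizontal axis), of the 11 probes described here and of each gene in 7 related lists, coloured by call, with each list's median as a bar and the median of all probes, 0.17, as a dotted line. The 11 probes have a median of -1.16, and the BMP and SMAD list one of 0.34.

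Cell type markers were read in the same way, beside 30.0% higher and 18.2% lower of all genes. Of 7 adipocyte markers 6 were lower and Lipe was higher, and their summed normalized intensity was 586381 and 561765 in control and 32053 and 33986 with berberine. Of 8 measured preadipocyte or fibroblast markers 4 were higher (Pdgfrb, Col1a1, Col1a2 and Cd34) and 3 lower (Pdgfra -0.99, Col3a1 -0.84, Dlk1 -1.63). The other Dlk1 probe was at -0.20 (limma adjusted p = 0.355). Their sum was 305242 and 312470 in control and 279670 and 281998 with berberine. The brightest of them was Vim, at 17.21 in control and 17.12 with berberine, which did not pass. None of the 8 was dim in either group, so these genes were present in both groups. Summed intensities were 1032 and 1209 in control and 1157 and 1077 with berberine for 5 macrophage markers, of which 1 was higher and 1 lower, and 792 to 1236 on any array for 4 endothelial markers, of which 2 were higher. The 3 epithelial markers, with sums of 713 and 753 in control and 428 and 452 with berberine, included Krt18, which was lower, and of the 2 muscle markers measured Des was 0.87 higher and Ckm was dim in both groups. The part of the adipocyte markers' difference in the ID, E protein and Bhlhe40 results was not tested.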

How the data were processed

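Each sample's RNA, labelled with Cy5 according to the label protocol, was read on its own array. The authors deposited intensities on a linear scale, as whole numbers with a few negative ones; their scanner, background correction and scaling are not stated. Array medians were 423 and 350 in control and 237 and 280 with berberine, so arrays were quantile-normalized. After 15 probes with a value of 0 or less were removed, log2 intensities of 26408 probes were fitted with limma 3.58.1 (R 4.3.3; lmFit, eBayes; 2 residual and 2.89 prior degrees of freedom), one spread for both groups, though at bright probes the control arrays differed by a median of 0.26 and the berberine arrays by 0.088. Of the 26423 probes, 20377 had 1 gene symbol, 0 several and 6046 were unnamed here, and symbols were updated through RefSeq. The fit was tested on simulated data with the same spread in both groups and changes planted at a small part of the probes. These arrays differ from that on both points, so the simulation does not show how the fit performs here. Every member probe is reported. From each list up to 4 called genes with the smallest p are named, with Bhlhe41, Hes1, Usp1, Rb1, Srebf1 and Cdkn1a, and 9 BMP and SMAD genes were added after their values were seen. Members, lists and rules were chosen with earlier results of these data known. The number of arrays limits the precision. Alternatives were other scalings, log2(value + 16), a filter on dim probes, an intensity trend with robust prior, a replicate block, at least a 2-fold change and each array left out. The 11 alternatives counted for a single gene or probe leave out the 2-fold setting.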

Additional observations from a re-analysis of the deposited data

How the results depend on the processing

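Over all probes, the count of 11838 calls became 6687 without scaling, 5806 with at least a 2-fold change added and 3346 to 10763 with each array left out in turn, where the lone array is assumed to vary like the other group. The cause of the lower counts without a berberine array was not tested. After centring on the median, 14005 of the 26408 probes passed, 10694 of them higher, and the median change of all probes was 0.52. Of the 11 probes of the ID and bHLH genes, 7 passed, 11 after centring on the median and 5 to 8 with an array left out. Samples of the same number did not deviate together (correlation across probes 0.0035), so the numbers are no evidence of pairing, and the replicate block gave 12760 probes and 7 of the 11. The falls of Id1, Id2, Id3, Tcf3 and the dimmer Tcf12 probe passed under all 11 alternatives counted for a single probe, which leave out the 2-fold setting. With at least a 2-fold change added, Bhlhe40 was no longer called (change 0.9987). Signs turned at the brighter Tcf12 probe (0.11 without scaling, 0.67 with centring on the median, 0.41 on the 75th percentile, and -0.16 to 0.14 with an array left out, among them 0.090 without berberine replicate 1), at Hes5 (-0.10) and Smad9 (-0.20) in the deposited values, at Bambi in the deposited values (-0.38), on the 75th percentile (-0.076) and with an array left out (-0.12 to 0.18, among them -0.026 without control replicate 1), at Per3 (0.23) and Snai2 (0.091) after centring, and at Cdkn1a after centring (0.28) and on the 75th percentile (0.023).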
